A study of Mus musculus with 2 samples.

Results

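Heat shock proteins and their co-chaperones were followed in the small-intestinal crypts of mice that had lost the phospholipid-remodelling enzyme Lpcat3 from the epithelium. The set was a list of 37 genes, taken by symbol from the array annotation. Of these, 35 had a probe set annotated with 1 gene symbol (91 probe sets in all), out of 18193 genes so named on the array. Hsp90ab1 and Hsf1 were not analysed here. The control group was Lpcat3 F/F, with floxed alleles and no Cre. The knockout group was Lpcat3 F/F, Villin-CreERT2, which adds a Cre recombinase that is expressed from the villin promoter in intestinal epithelium and becomes active with tamoxifen. Mice of both groups were 8 to 10 weeks old, were injected with tamoxifen on 5 days (1 mg per mouse each day), and their crypts were taken 2 weeks after that. Each group pooled the RNA of 5 mice and was hybridised to 1 Affymetrix array, so each group is 1 pool and 1 array. The genotypes could not be tested against each other, and the text holds no p-values. Loss of Lpcat3, presence of Cre, pool and array cannot be told apart.

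Heat shock proteins are molecular chaperones that hold, fold or disassemble other proteins. Hsp70 proteins work in an ATP cycle in which J-domain proteins deliver clients and start ATP hydrolysis, while nucleotide exchange factors of the Hsp110 and BAG families release them. Hsp90 takes over some of these clients with its own partners, and mitochondria hold a separate Hsp70 and the Hsp60 and Hsp10 chaperonin. When unfolded proteins accumulate, the transcription factor HSF1 binds heat shock elements, repeats of the letters GAA in alternating orientation, and raises the inducible members. In a rapidly renewing crypt the constitutive members are also expressed without stress.

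Values are MAS5 signals, the linear brightness of a probe set, and differences are log2 ratios of knockout over control. Signals below 92.9, the median of all values of both arrays, were raised to that floor. Where only 1 array exceeded it, the ratio is a bound; a gene that exceeded it on neither array counts as not measured. In all, 33 of the 37 members were measured, 30 of them with both values above the floor, and 11496 genes were measured on the array as a whole. As a yardstick, the error of a single probe set was taken from the 2 brightest probe sets of a gene. The SD of the difference between their ratios was divided by the square root of 2. This probe-set SD was 0.28 on the log2 scale (1.21-fold, from 4582 genes). Where the dimmer of the 2 also reached a signal of 451 on both arrays, it was 0.21 (2036 genes). The value of 0.28 is used below unless stated. Neither value holds any part of the variation from mouse to mouse or pool to pool.

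Lpcat3 itself read 4691 in control and 928 in knockout (log2 ratio -2.34). Of 17 crypt and epithelial markers 5 were higher in the knockout pool and 12 lower, with summed signals of 250472 and 247928. Of all measured genes 44.9% were higher and 55.1% lower. Epcam read 25413 and 25300, the enterocyte marker Alpi 17823 and 27416, and the stem cell marker Lgr5 814 and 171 (log2 ratio -2.25). Olfm4, Ascl2 and Smoc2, also markers of crypt stem cells, were lower by less, at -0.59, -0.56 and -0.54. All 13 T and natural killer cell markers were lower in the knockout pool, each by 2-fold or more (2.32% of all measured genes were), and their summed signals were 49587 and 10706. All 6 measured B and plasma cell markers were higher, with sums of 1439.5 and 5043. Of 6 measured myeloid markers 3 were higher, Csf1r (121 and 700) the most, and 3 lower. Their sums of 4234 and 3927 came mostly from Lyz2 (3225 and 2477). Of 15 stromal, muscle and vessel markers, 11 were below the floor on both arrays, Col1a1 and Col3a1 among them. The part of these cell types in the chaperone values was not tested, and in pooled crypt RNA fewer cells of a type and less RNA per cell cannot be told apart. The ratio of 3' to 5' signal for Actb, a measure of how intact the RNA is, was 1.98 in the control pool and 1.64 in the other, and for Gapdh 0.785 and 0.742.

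The chaperone difference between the pools was concentrated in the inducible Hsp70 genes. Hspa1b was 12.0-fold higher in the knockout pool and Hspa1a at least 4.08-fold higher, while 27 of the 30 members with both values above the floor lay within 1.5-fold (87.3% of all genes so measured did). No member was 1.5-fold lower. The members at least 1.5-fold higher numbered 4 (12.1%), against 4.76% of all measured genes, and 8.74% of all measured genes were at least 1.5-fold lower. Of the 33, the Hspa1 pair was at least 2-fold higher, against 1.41% of all measured genes. The floor limits this count, since Hspa2 (24.1 in control and 103 in knockout) is bounded at 0.15. With the floor at the 30th percentile its bound was 1.56. Without that pair 2 of 31 members (6.45%) were 1.5-fold higher, which is close to the background. The median log2 ratio was 0.13 over the 33 members and -0.042 over all measured genes, and it was 0.038 without the pair.

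Hspa1b encodes inducible Hsp70, the classical marker of the heat shock response. Its brightest probe set read 387 in control and 4651 in knockout. Its other probe sets read 133 against 1671 and 114 against 977. All 3 gave a difference of the same direction and of like size, with log2 ratios of 3.59, 3.65 and 3.11 (mean 3.45, SD 0.30 over probe sets). That of the brightest probe set was 12.8 times the probe-set SD, and Hspa1b ranked 1 of the 11496 measured genes by ratio.

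Hspa1a, the second inducible Hsp70 gene, encodes a nearly identical protein. Its single probe set read 49.8 in control, below the floor, and 378 in knockout. The log2 ratio is therefore a bound of 2.03, rank 21 of the measured genes. With the floor at the 70th percentile that floor lay close to the knockout value, and the bound was only 0.25. Which of these similar genes each probe set binds was not tested, so the 2 are described as a pair.

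Both genes stand side by side and share almost the same promoter. The 250 bases before their RefSeq starts (build GRCm38.p6, both on the minus strand) were identical at 247 positions (98.8%). They are shown because the pair holds the largest differences of the set. Capitals mark the letters of a 2-unit heat shock element (GAANNTTC or TTCNNGAA), which begins 104 bases before the start in each. Hspa1a lies at chr17:34972157-34972406 and Hspa1b at chr17:34959239-34959488.
Hspa1a: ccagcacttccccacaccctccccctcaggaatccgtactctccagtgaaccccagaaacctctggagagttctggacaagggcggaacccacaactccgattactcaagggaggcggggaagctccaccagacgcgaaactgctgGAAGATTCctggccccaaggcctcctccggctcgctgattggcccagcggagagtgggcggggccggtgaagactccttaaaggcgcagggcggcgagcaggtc
Hspa1b: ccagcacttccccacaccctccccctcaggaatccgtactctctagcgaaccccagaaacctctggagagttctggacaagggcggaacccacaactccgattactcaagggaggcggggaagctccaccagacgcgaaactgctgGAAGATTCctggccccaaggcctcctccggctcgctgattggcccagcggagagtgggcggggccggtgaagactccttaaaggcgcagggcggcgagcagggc

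**Figure D1:**
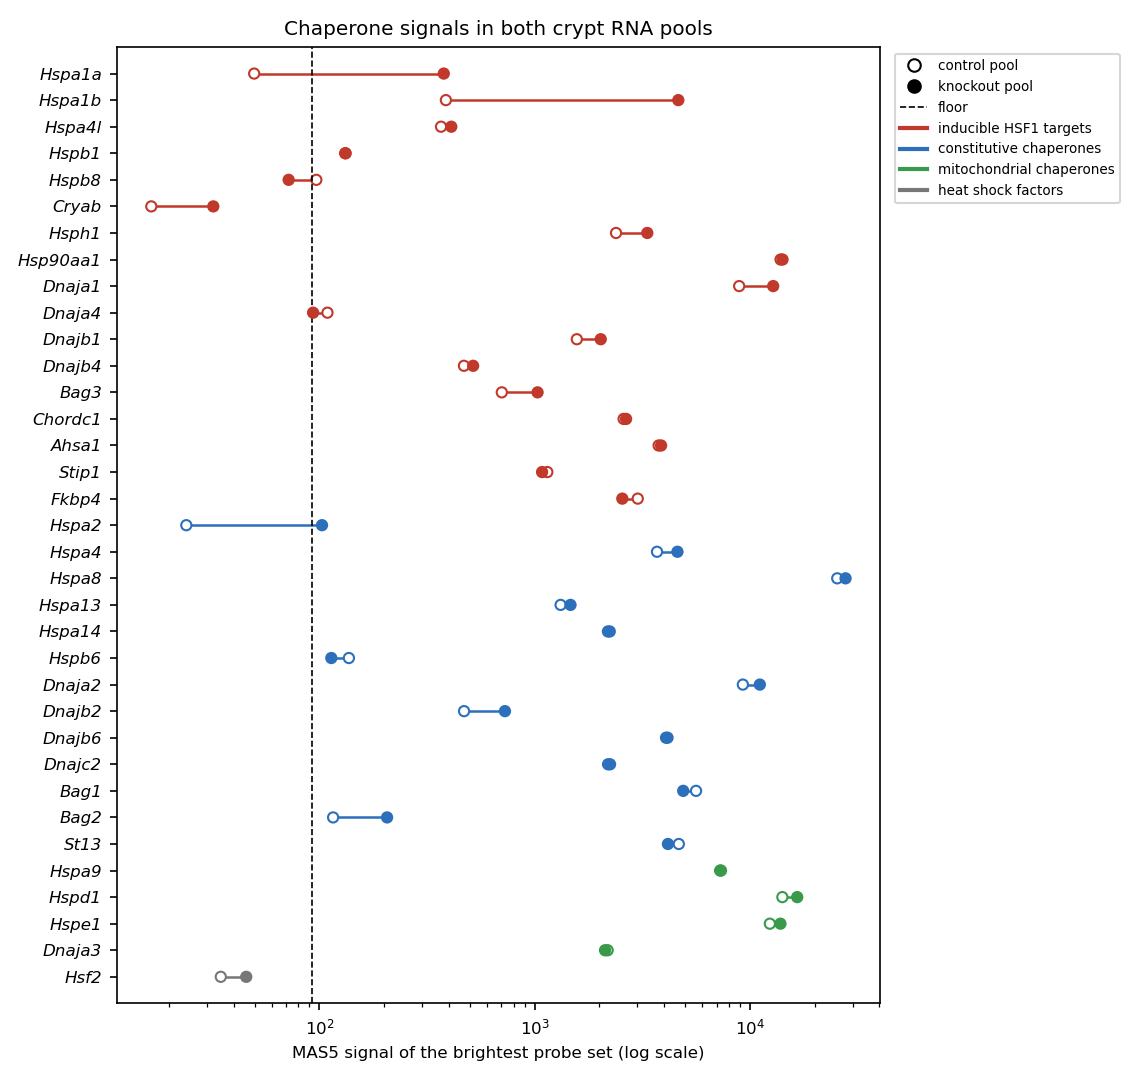
MAS5 signal of the brightest probe set of each member (log scale) in the control pool (open circles) and the knockout pool (filled circles), 1 array each, coloured by group, with the floor of 92.9 dashed. The long lines at Hspa1a (49.8 to 378) and Hspa1b (387 to 4651) contrast with the short ones of most other members, and the long line of Hspa2 starts below the floor.

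The other inducible HSF1 targets did not share a difference of that size. The group had 17 genes, of which 16 were measured, 11 higher and 5 lower (44.9% of all measured genes were higher and 55.1% lower). Its median log2 ratio was 0.090, or 0.038 without the Hspa1 pair, and 10 of the 16 lay within 1 probe-set SD of 0, against 58% of all measured genes. Without the pair, none of the 14 remaining genes reached 1.5-fold by its brightest probe set.

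The highest of the inducible group after the pair were Bag3, Dnaja1 and Hsph1. Bag3, a nucleotide exchange factor that links Hsp70 to autophagy, read 704 in control and 1032 in knockout, a log2 ratio of 0.55. Dnaja1, a J-domain protein of the cytosol, read 8917 and 12830, a ratio of 0.52, with 0.33 and 0.59 by its other probe sets. Hsph1, the inducible Hsp110, read 2389 and 3338, a ratio of 0.48, and its second probe set (777 and 1357) gave 0.80. These 3 genes were higher in the knockout pool by every measured probe set, at between 1 and 3 times the probe-set SD.

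Dnajb1, the J-domain partner of inducible Hsp70 that also takes part in shutting off HSF1, read 1571 and 2028. Its 2 probe sets gave nearly the same log2 ratios, 0.37 and 0.32. Dnajb4, a related J-domain protein, was at 0.14, with 0.40 and -0.23 by its other probe sets, so its direction depended on the probe set. The brightest probe set of Hspa4l, an Hsp110 relative, gave 0.16, and its 4 others were below 0, down to -0.39. Dnaja4, a further J-domain gene, read 109 and 93.5, at the edge of the floor.

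Hsp90 and its inducible partners had small ratios. Hsp90aa1, the stress-inducible Hsp90, read 13884 and 14179, a log2 ratio of 0.030, with -0.061 and -0.38 by its other probe sets. Ahsa1, which activates the Hsp90 ATPase, read 3768 and 3869, and Chordc1, an Hsp90-binding protein, read 2591 and 2660. Both were at 0.038. Stip1, which bridges Hsp70 and Hsp90, read 1146 and 1083 and was at -0.081. Fkbp4, an immunophilin of steroid receptor complexes, read 3014 and 2555 and was at -0.24, while its second probe set gave 0.096. All 5 lay within 1 probe-set SD of 0 by their brightest probe set, as did 58% of all measured genes. Fkbp4 was past the smaller SD of bright probe sets, 0.21.

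The small heat shock proteins, which bind unfolding proteins without ATP, were at or near the floor. Hspb1 read 133 in control and 132 in knockout, a ratio of -0.0085. Hspb8, the partner of Bag3, read 96.8 and 72.0, a bound of -0.061. Cryab, at 16.6 and 32.2, was not measured. Hspb6, which is not heat-inducible and is counted with the constitutive group, read 137 and 114 and was at -0.27, the lowest value of the 33 members. With the floor at the 30th percentile Hspb8 was lower still, at -0.43.

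Among the constitutive chaperones 13 of 14 genes were measured, 8 higher and 5 lower (44.9% of all measured genes were higher and 55.1% lower). Their median was 0.13, against -0.042 for all measured genes. Hspa8, the constitutive Hsp70 cognate, read 25452 and 27824, a log2 ratio of 0.13. Its other probe sets gave 0.019, 0.30 and 1.05, the last from the dimmest of them (929 and 1917). The SD over these 4 probe sets was 0.46, and the brightest 3 stayed below 1.5-fold. Hspa4, a constitutive Hsp110, read 3703 and 4608 and was at 0.32, with probe sets between -0.36 and 0.32.

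The members of this group past 1.5-fold were Bag2 and Dnajb2. Bag2, a nucleotide exchange factor that also restrains the ubiquitin ligase of the Hsp70 complex, read 116 and 206, a ratio of 0.83, from 1 probe set close to the floor. It was below 1.5-fold (0.52) with a pseudocount in place of the floor, and not measured with the floor at the 70th percentile. Dnajb2, a J-domain protein that sorts clients for degradation by ubiquitin, read 470 and 728, a ratio of 0.63. It too had 1 probe set, and with the pseudocount it was at 0.54, also below 1.5-fold.

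Dnaja2, a constitutive relative of Dnaja1, read 9276 and 11123 and was at 0.26, with other probe sets from -0.23 to 0.80. Hspa13, an Hsp70 of microsomes, read 1321 and 1468 and was at 0.15. Hspa14 (-0.028) and Dnajc2 (0.031), which together serve nascent chains on the ribosome, did not move by more than the probe-set SD, nor did Dnajb6 (-0.023), a suppressor of protein aggregation. Lower values belonged to Bag1 (5623 and 4900, -0.20), the first known BAG exchange factor, and St13 (4676 and 4163, -0.17), which stabilises Hsp70 in its client-bound state. All 3 probe sets of St13 were below 0. Hspa2, best known from testis, read 24.1 and 103 and so is bounded only by 0.15.

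The mitochondrial chaperones also had small ratios. All 4 were measured, 3 higher and 1 lower, where 44.9% of all measured genes were higher and 55.1% lower. Their median was 0.088, against -0.042 for all measured genes. All lay within 1 probe-set SD, where 58% of all measured genes lay too, but Hspd1 was past the smaller SD of bright probe sets, 0.21. Hspd1, mitochondrial Hsp60, read 14153 and 16590 (0.23), and its partner Hspe1, Hsp10, read 12379 and 13866 (0.16). A second probe set of Hspe1 (2027 and 3111) gave 0.62. Hspa9, the mitochondrial Hsp70, was at 0.013 and within 0.093 by each measured probe set, and its J-domain partner Dnaja3 was at -0.040. Of the transcription factors, Hsf2 read 34.9 and 45.8 and was not measured.

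The rule that formed the list set inducible HSF1 targets against constitutive and mitochondrial chaperones. By their medians the 3 groups hardly differed, at 0.090, 0.13 and 0.088, and by counts at 1.5-fold they held 2 of 16, 2 of 13 and 0 of 4 genes. What set the inducible group apart was its range, from -0.24 to 3.59, against -0.27 to 0.83 and -0.040 to 0.23. That range came from the Hspa1 pair, since without it the inducible genes ran from -0.24 to 0.55. No test of the difference between groups was made. Higher by more than 1 probe-set SD (0.28) were 9 of the 33 members (16.7% of all measured genes), and none was lower by more than that (25.3% of all measured genes), Hspb8 and Hspa2 being counted at their bounds. By the smaller SD of bright probe sets, 0.21, the bright member Fkbp4 (-0.24) was lower by more than 1 SD. Dnaja2 (0.26) and Hspd1 (0.23), also bright, were then higher by more than 1 SD. Of 25 members that reached the 75th percentile of signal (451) on the brighter array, 18 (72%) were higher, against 47.8% of all genes that bright, and 2 (8%) were at least 1.5-fold higher, against 4.32%.

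**Figure D2:**
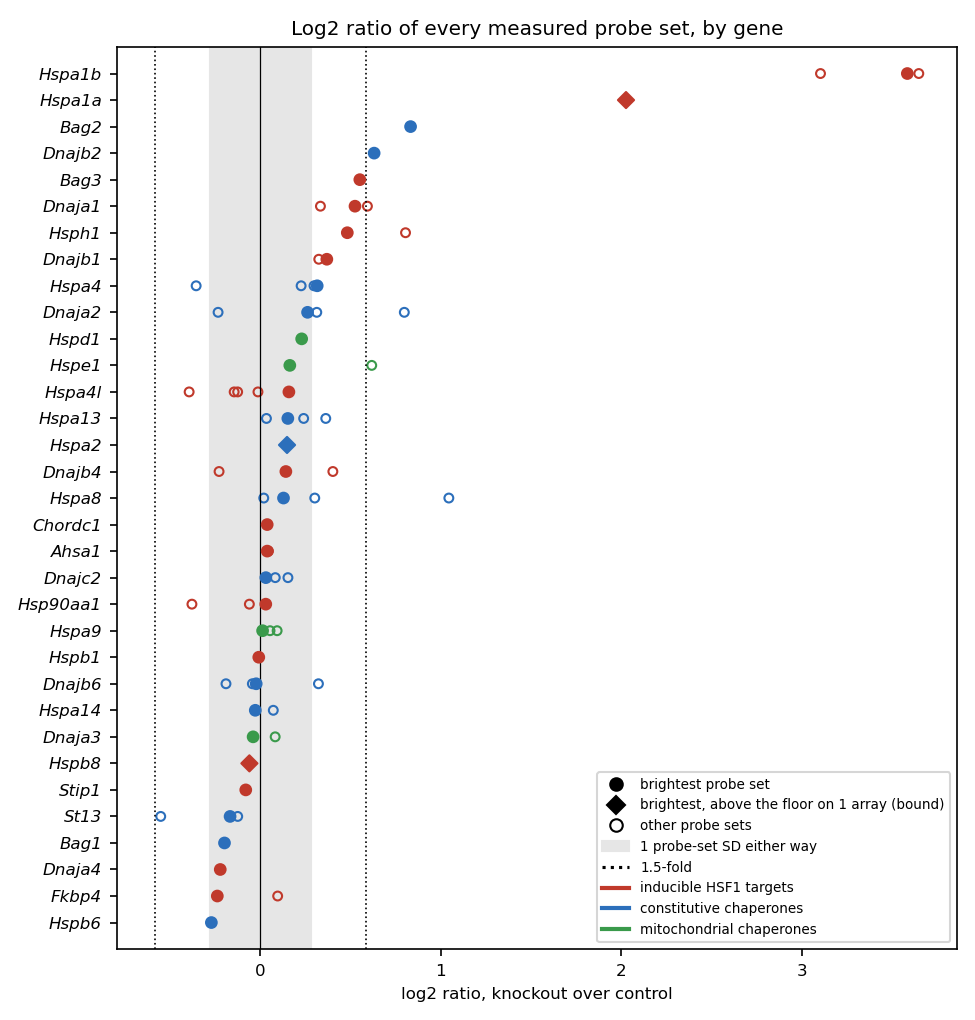
Log2 ratio, knockout over control, of each measured probe set of the 33 measured members, ordered by the brightest probe set (filled circles; diamonds are bounds), with the other probe sets as open circles. The grey band is 1 probe-set SD (0.28) either way and dotted lines mark 1.5-fold; Hspa1b and Hspa1a stand apart at 3.59 and 2.03, and the next gene, Bag2, is at 0.83.

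Of the 20 members with at least 2 measured probe sets, 11 had all of them on 1 side of 0. In 4 the probe sets spanned more than 2 probe-set SDs, so that the value of a single probe set is of limited weight for members with small ratios. Over all 73 measured probe sets of members, 49 were above 0, 24 below it, 11 at least 1.5-fold higher and none 1.5-fold lower. These are counts of probe sets and not of genes, and those of the Hspa1 pair are among the 11. Shares over all probe sets of the array were not computed for any count in this paragraph, so no excess is read from them.

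The letters of the heat shock element were searched in the promoters of the members. RefSeq promoter windows (GRCm38.p6) matched 28 of the 37 members. The 2-unit element, whose spellings GAANNTTC and TTCNNGAA each read the same on both strands, was found in the 250 bases before the start in 12 of these 28 genes (42.9%). It was found in 14.5% of all 27025 genes with a window and in 12.8% of all 32851 windows. By group it was present in 8 of 15 inducible, 2 of 9 constitutive and 2 of 3 mitochondrial genes with a window. The 12 members with the element had a median log2 ratio of 0.15, and so did the 15 measured members with a window but without it. The highest ratio was 3.59 with the element, where the Hspa1 pair lies, and 0.83 without it. Over the whole array 1121 genes with the 2-unit element were measured, with shares of 5% past 1.5-fold upward and 8.74% past it downward. Among all measured genes with a window these shares were close to that, at 4.67% and 8.5%. A match is a description of letters, not of a bound site.

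The 3-unit element extends either spelling by a further GAA or TTC in alternation, after 2 free bases, on either strand. It contains the 2-unit one and was found in 0.514% of genes with a window. Among members it was found for Hspd1, Hspe1 and Dnajb6. Hspd1 and Hspe1 run in opposite directions from 1 shared stretch, and the same letters, at chr1:55088059-55088076, count for both. Stretches of 30 bases are shown to set genes with small ratios beside the Hspa1 pair. They are, in order, chr1:55088053-55088082 (plus strand), chr5:29735843-29735872 (plus), chr5:149636351-149636380 (minus), chr4:40722333-40722362 (plus), chr6:128438789-128438818 (minus) and chr5:135887801-135887830 (plus), with capitals as above.
Hspe1: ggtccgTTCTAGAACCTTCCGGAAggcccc
Dnajb6: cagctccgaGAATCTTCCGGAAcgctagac
Hsph1: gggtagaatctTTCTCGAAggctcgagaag
Dnaja1: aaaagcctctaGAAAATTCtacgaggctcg
Fkbp4: ccgcttctctaGAAAGTTCtccgctcccgc
Hspb1: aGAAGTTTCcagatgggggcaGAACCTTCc

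By exact letters, Hspe1 and Dnajb6 held longer runs of the element than either Hspa1 gene, with ratios of 0.16 and -0.023. Runs in which a letter differs were not searched, in the Hspa1 promoters or elsewhere, so the strength of the elements is not compared. Hsph1 and Dnaja1, at 0.48 and 0.52, held 1 element of 2 units each, as did Fkbp4 at -0.24, while Hspb1 held 2 such elements at -0.0085. Over the whole array 43 genes with the 3-unit element were measured, of which 2 (4.65%) were 1.5-fold higher or more and 1 (2.33%) was 1.5-fold lower or more. Among all 9338 measured genes with a window these shares were 4.67% and 8.5%. The median ratio of the 43 genes was 0.0010.

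The wider chaperone network was described by lists of related genes, whose medians stand beside -0.042 for all measured genes. These lists were drawn up with earlier results of these data known, so their counts and shares are descriptions and not a test. Of 24 other measured J-domain genes 14 (58.3%) were higher, against 44.9% of all measured genes, and the median was 0.098. None was 1.5-fold higher, against 4.76% of all measured genes. Dnajc28 (214 and 107) alone was 1.5-fold lower (4.17%, against 8.74%). The highest were Dnajc18 (0.49), Dnajc16 (0.41) and Dnajc17 (0.39). The list of other partners of Hsp90 and Hsp70 also holds further genes named as heat shock proteins or factors, such as Hspb11 and Hsf5. Of its 21 measured genes 13 (61.9%, against 44.9%) were higher, with a median of 0.033. By 1.5-fold or more 2 (9.52%, against 4.76%) were higher and 1 (4.76%, against 8.74%) was lower. Unc45a, an Hsp90 partner for myosin folding, read 381 and 588 (0.63), Hsf5 was above the floor in the knockout pool only (64.4 and 182, a bound of 0.97), and Hspb11 was at -0.66. The Hsp90 client loader Cdc37 was at -0.085 and Fkbp5, an immunophilin like Fkbp4, at 0.033.

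The cytosolic chaperonin TRiC, which folds actin and tubulin, and its feeder prefoldin were measured with 14 genes. Of these, 7 (50%) were higher (44.9% of all measured genes were), with a median of 0.035. All lay within 1.5-fold, between -0.20 (Vbp1) and 0.37 (Pfdn1). So did 87.3% of all genes with both values above the floor. The 14 genes of mitochondrial import and quality control also lay within 1.5-fold, from Hscb at -0.37 to the protease gene Afg3l2 at 0.47. Of them 10 (71.4%, against 44.9%) were higher, with a median of 0.11.

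Most chaperones of the endoplasmic reticulum answer to the unfolded protein response and not to HSF1 in the first place. Serpinh1 (-0.16), counted among them here, is also in the list of genes known to rise with heat shock, described below. Of the 18 genes listed, 15 were higher (44.9% of all measured genes were), with a median of 0.28. Of the 18 genes, 4 (22.2%, against 4.76%) were at least 1.5-fold higher. This list too was drawn up with earlier results known, so its shares are a description. Creld2 read 1645 and 3025 (0.88), Hyou1, the Hsp110 of this compartment, 2845 and 4765 (0.74), Manf 6013 and 9219 (0.62) and Sdf2l1 1604 and 2410 (0.59). The Hsp70 of this compartment, Hspa5, was at 0.24 (21635 and 25593) and its Hsp90, Hsp90b1, at 0.14.

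**Figure D3:**
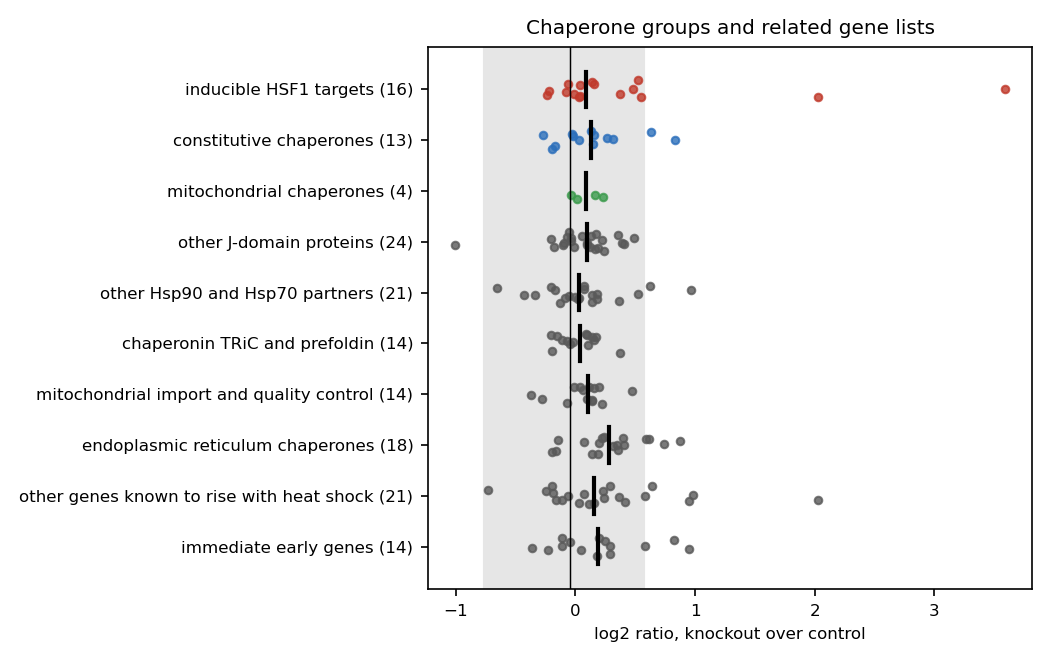
Log2 ratio of each measured gene (points) in the chaperone groups and related lists, with the number of genes in brackets and the median as a thick bar; the grey band holds the central values of all measured genes between the 5th and 95th percentile (-0.76 to 0.57) and the thin line is their median (-0.042). Medians run from 0.033 for other Hsp90 and Hsp70 partners to 0.28 for endoplasmic reticulum chaperones, and the Hspa1 pair lies far to the right.

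The genes beside Hspa1b and Hspa1a did not share their difference. This comparison was chosen after the values of the pair were seen. Gene order was taken from RefSeq (GRCm38.p6), and the 8 nearest measured genes on each side were read. These 16 genes had ratios from -0.91 to 0.52 with a median of -0.012, and 1 of them, Ddah2 (204 and 109), was past 1.5-fold. The nearest were the transcript 1110038B12Rik at 0.21, next to Hspa1b, and Lsm2, a subunit of RNA-binding Lsm rings, at 0.35, next to Hspa1a. No measured gene lay between the pair.

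**Figure D4:**
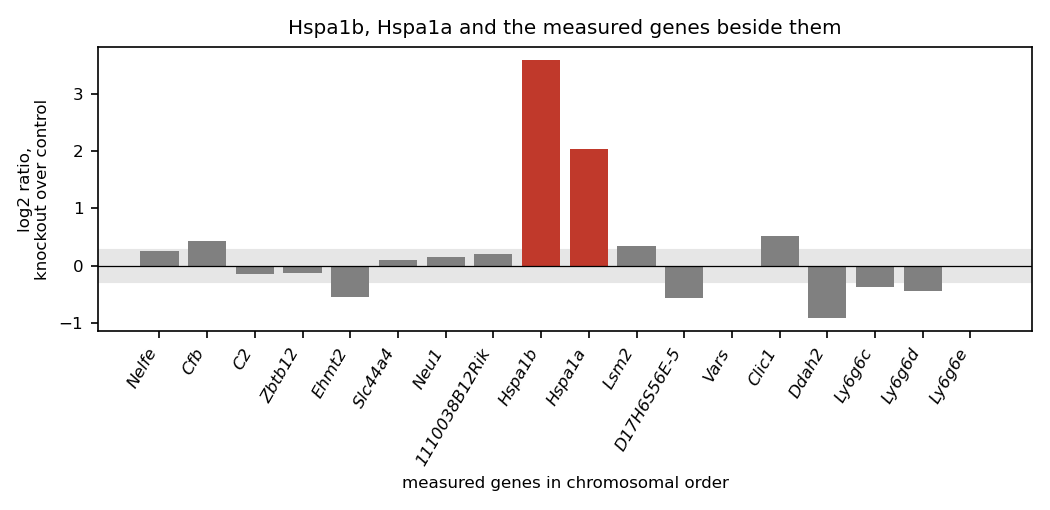
Log2 ratio, knockout over control, of Hspa1b and Hspa1a (red) and of the 8 nearest measured genes on each side (grey) in chromosomal order, with 1 probe-set SD (0.28) either way as a grey band. The pair reaches 3.59 and 2.03 (a bound) while the others stay between -0.91 and 0.52.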

How the data were processed

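The table holds 2 arrays with 45101 probe sets each. Its values are linear signal intensities deposited by the authors, and the submitters' processing notes name MAS5, without a version. Both arrays had a trimmed mean (2% off each end) of 500.003 and were used as deposited. After 64 control probe sets were set aside, the 34945 probe sets with 1 gene symbol named 18193 genes, with symbols updated through Entrez identifiers for 34741 of them. Each gene is represented by its probe set of highest mean log2 signal. The floor is the 50th percentile of non-control values. Probe-set error is the SD of the difference between the ratios of a gene's 2 brightest probe sets, both measured on each array, divided by the square root of 2. The number of arrays limits the precision. The log2 ratios were computed with Python 3.11.15, numpy 2.4.6 and pandas 2.3.3, and the scripts were tested on simulated data. Members and lists were chosen with earlier results of these data known. All members may be named, with the 3 highest, the 3 lowest and the 1.5-fold members of each related list, any marker, and Lpcat3; the genes beside the Hspa1 pair were added after values were seen. Lists share a few genes. Promoter letters were searched in RefSeq windows. Alternatives were quantile normalisation, centring, floors at the 30th and 70th percentile, a pseudocount, other probe-set rules and other list membership.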

Additional observations from a re-analysis of the deposited data

How the results depend on the processing

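No paired analysis was possible because control and knockout have 1 array each, and leaving an array out would leave nothing to compare. The medians of all members, inducible, constitutive and mitochondrial genes kept their sign under each alternative, at 0.084 to 0.17, 0.038 to 0.16, 0.080 to 0.17 and 0.019 to 0.14. With the floor at the 70th percentile, which leaves 27 members, 2 were past 1.5-fold on the higher side (3.71% of all genes so measured). At a fold of 2 they numbered 2 (1.41% of all measured genes). They numbered 3 to 5 otherwise. The share of all genes then ran from 2.94% with the pseudocount to 8.22% with the floor at the 30th percentile. Lower members numbered 0 in each. Of all genes, 2.32% were lower at a fold of 2, and 4.35% to 12.6% at 1.5-fold under the alternatives. Hspa1b stayed between 3.30 and 3.63, and Hspa1a between 0.25 and 2.93. The 2.93 came with the floor at the 30th percentile, which both values of Hspa1a exceeded, so it is not a bound. With the floor at the 30th percentile Hspa2 was at 1.56, still a bound, and Hspb8 at -0.43, and with the pseudocount Hspa2 was at 0.74. Dim members are limited by the floor.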

Other observations

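Other genes known to rise with heat or other stress went different ways, in a list of 21 measured genes. It holds 4 chaperones or partners of the lists above, Hspa5, Serpinh1, Fkbp5 and Cacybp, which all lay within 1.5-fold. At least 1.5-fold higher were 5 (23.8%, against 4.76% of all measured genes), 1 (4.76%, against 8.74%) was at least 1.5-fold lower, and the median log2 ratio was 0.16. The list was drawn up with earlier results of these data known, so these shares are a description and not a test. The metallothionein genes Mt2 and Mt1, which encode metal-binding proteins, read 1892 and 7732 (2.03) and 7258 and 14372 (0.99) in the control and knockout pools. Atf3, a stress-induced transcription factor, was at 0.95, the cell cycle inhibitor Cdkn1a at 0.64 and Fos at 0.59. The apoptosis gene Bcl2l11 was at -0.73. Hmox1, heme oxygenase 1, read 48.4 and 42.5 and was below the floor on both arrays.

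Immediate early genes, which respond within minutes to handling as well as to growth signals, had a median of 0.19 over 14 genes. Of these, 3 (21.4%, against 4.76% of all measured genes) were at least 1.5-fold higher, namely Atf3, Ier3 at 0.83 and Fos. None was 1.5-fold lower (8.74%). This list too was drawn up with earlier results known. Jun was at -0.11, Egr1 at -0.23 and Ier2 at -0.36. Their part in the Hspa1 values was not tested.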
